A study of Homo sapiens with 24 samples.

Results

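The ID family comprises ID1, ID2, ID3 and ID4, and its members were the genes carrying these 4 symbols, 4 of the 57820 genes counted in each library. All 4 were detected in all 24 libraries. Gene expression was measured by RNA-seq of total RNA in 8 groups of 3 biological replicates. The study asked how cells that lack ID3 respond to mocetinostat, an inhibitor of class I histone deacetylases (HDACs), and recover from it.

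The first set of 4 groups came from AID-DIvA U2OS cells, osteosarcoma cells with a stably integrated gene for the restriction enzyme AsiSI, in a form induced with 4-hydroxytamoxifen and degraded with auxin. The cells were wild-type (WT) or ID3-knockout (KO), and the methods for the RNA libraries name no induction of the enzyme. Each genotype was either left untreated or treated with mocetinostat for a day and kept for a further day in medium without the drug (after recovery). The second set came from cells labelled U2OS, WT or ID3-KO, which were untreated or treated with mocetinostat. According to the methods these were collected at the end of treatment (before recovery), a stage inferred here from the methods and not given in the labels. Library names of the second set also contain the word DivA, so cell line label, stage and sequencing set coincide and cannot be told apart. The dose of mocetinostat used for these libraries, the way the KO was made and the number of clones are not given in the sources used here, and panel titles in the study's supplement name the controls DMSO where the labels name them untreated. Sample titles and the treatment entry disagree for all AID-DIvA libraries, and groups here follow the titles.

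ID proteins are helix-loop-helix proteins without the basic region that contacts DNA. They pair with the E proteins TCF3, TCF4 and TCF12, which otherwise bind E boxes alone or with tissue-specific partners, and so keep them off DNA. ID genes are classical targets of bone morphogenetic proteins (BMPs) acting through SMAD1, SMAD5 and SMAD4, and they are known for high expression in proliferating, poorly differentiated cells and for repression of the CDK inhibitor CDKN1A through its E boxes.

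In hg19, the build of the deposited counts, ID1 (ENSG00000125968.7) lies on the plus strand of chromosome 20 from 30193086 to 30194318, and its 1233 counted bases are the whole locus, intron included. ID2 (ENSG00000115738.5) lies on the plus strand of chromosome 2 from 8818975 to 8824583. ID3 (ENSG00000117318.8) lies on the minus strand of chromosome 1 from 23884409 to 23886285. ID4 (ENSG00000172201.6) lies on the plus strand of chromosome 6 from 19837617 to 19840915. Promoters are shown because the members responded to the drug in different ways. Each is the sequence up to 250 bases before the RefSeq start of the gene, taken from the RefSeq promoters of GRCh38.p14, which held all 4 members, and placed in hg19 by its only exact match. Capitals mark 6 motifs searched on both strands, which may overlap. They are the E box (CANNTG), a palindrome of G and C (GGCGCC), the GC box (GGGCGG), the CCAAT box, the TATA box (here TATAAA) and the core of the cAMP response element (TGACG).
ID1, chr20:30192842-30193085, plus strand: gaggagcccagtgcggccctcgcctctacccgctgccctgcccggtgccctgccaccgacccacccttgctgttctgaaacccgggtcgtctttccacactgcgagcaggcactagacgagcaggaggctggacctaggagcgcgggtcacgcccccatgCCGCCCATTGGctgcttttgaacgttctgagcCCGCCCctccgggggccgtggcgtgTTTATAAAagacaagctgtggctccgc
ID3, chr1:23885993-23886242, minus strand: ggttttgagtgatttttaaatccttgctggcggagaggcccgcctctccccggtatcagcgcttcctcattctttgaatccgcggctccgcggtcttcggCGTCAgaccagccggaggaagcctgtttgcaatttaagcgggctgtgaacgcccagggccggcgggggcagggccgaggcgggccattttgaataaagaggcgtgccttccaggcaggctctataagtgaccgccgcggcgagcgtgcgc
ID4, chr6:19837351-19837600, plus strand: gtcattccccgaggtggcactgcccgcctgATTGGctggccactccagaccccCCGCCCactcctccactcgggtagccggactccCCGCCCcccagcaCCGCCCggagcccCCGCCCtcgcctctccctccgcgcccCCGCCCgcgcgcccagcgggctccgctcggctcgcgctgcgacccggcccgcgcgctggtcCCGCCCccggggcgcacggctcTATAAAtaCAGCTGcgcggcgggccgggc
The sequence of ID1 is 244 bases long because the last 6 of its window are annotated as UTR and are not printed. The 250-base window of ID2 (chr2:8821936-8822185) is not printed because 202 of its bases are annotated as exon of a longer ID2 transcript.

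Motifs and GC content were taken over the whole window of each gene, unprinted bases included. Within these 250 bases, a GC box was present in ID1 (2 matches), ID2 (2 matches) and ID4 (6 matches) and in 42.6% of the 35116 RefSeq promoters. CCAAT was present in ID1, ID2 (3 matches) and ID4 and in 32% of promoters. TATAAA was present in ID1, where 2 matches on opposite strands overlapped, and in ID4, and in 10.7% of promoters. An E box was present in ID2 and ID4 and in 61.8% of promoters. The window of ID3 held none of these and a single TGACG, which was present in 21.2% of promoters, while GGCGCC (16.4% of promoters) was in none of the 4 windows. GC content was 66% for ID1, 69.2% for ID2, 62% for ID3 and 78.8% for ID4, against a median of 58% over all promoters. These matches describe the letters in one window and say nothing of factor binding.

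Total counts per library lay between 37878751 and 76906266 in the AID-DIvA set and between 46285533 and 70692114 in the U2OS set. At this depth the members had 8810 to 38218 counts per library for ID1, 249 to 1157 for ID2, 1642 to 6801 for ID3 and 139 to 956 for ID4. Reads on the antisense strand were 0.0446% of those of ID1, 0.135% of ID2, 0.107% of ID3 and 0.398% of ID4. ID2 overlaps AC011747.7, which had 956 counts over all libraries, and ID4 overlaps RP1-167F1.2, which had 456. Untreated WT U2OS replicate 1 stood apart from replicates 2 and 3 (chi-square per gene 92.4 and 82, against 4.06 between replicates 2 and 3 and at most 24.5 within other groups). Its effect is given beside the calls of the members that it changed. For other genes it is given for some of the changed calls only. Of 9 mesenchymal and osteoblast markers COL1A1 (group means of 1073 to 2373 CPM), SPARC, VIM and RUNX2 were expressed, whereas the osteoblast markers SP7, BGLAP and IBSP stayed under 1 CPM. COL1A2 (0.139 to 1.24 CPM) and ALPL (0.68 to 6.03 CPM) were low as well. The 4 markers of other cell types analysed here summed to 5.9 to 10.7 CPM per library, mostly from EPCAM, and the blood markers PTPRC and CD3E had group means at or below 0.35 CPM. The summed level of these 4 markers was higher in treated libraries, from 6.2 to 6.8 CPM in untreated WT U2OS libraries to 9.6 to 9.9 CPM in treated ones. The summed mesenchymal and osteoblast markers were lower (4236.2 to 4669.6 against 2789.9 to 3014.8 CPM). The part of these markers in the results was not tested.

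ID1 was the main ID transcript in every group. On the per-length scale of TPM (transcript abundance per length, scaled to a fixed total), ID1 made up between 76.7% ± 2.20 (SD, n = 3, WT after recovery) and 89.7% ± 0.169 (n = 3, treated KO U2OS) of the summed ID level. ID3 came next, with 20.9% ± 2.12 in WT cells after recovery and 6.90% ± 0.198 in treated KO U2OS cells as the highest and lowest group means. ID2 and ID4 together never reached the share of ID3, with group means of 1.02% to 1.92% for ID2 and 0.711% to 1.67% for ID4. In untreated WT AID-DIvA cells the mean levels were 506 ± 31.1 TPM for ID1, 88.5 ± 5.71 for ID3, 11.8 ± 0.877 for ID2 and 7.25 ± 0.961 for ID4 (SD, n = 3).

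**Figure D1:**
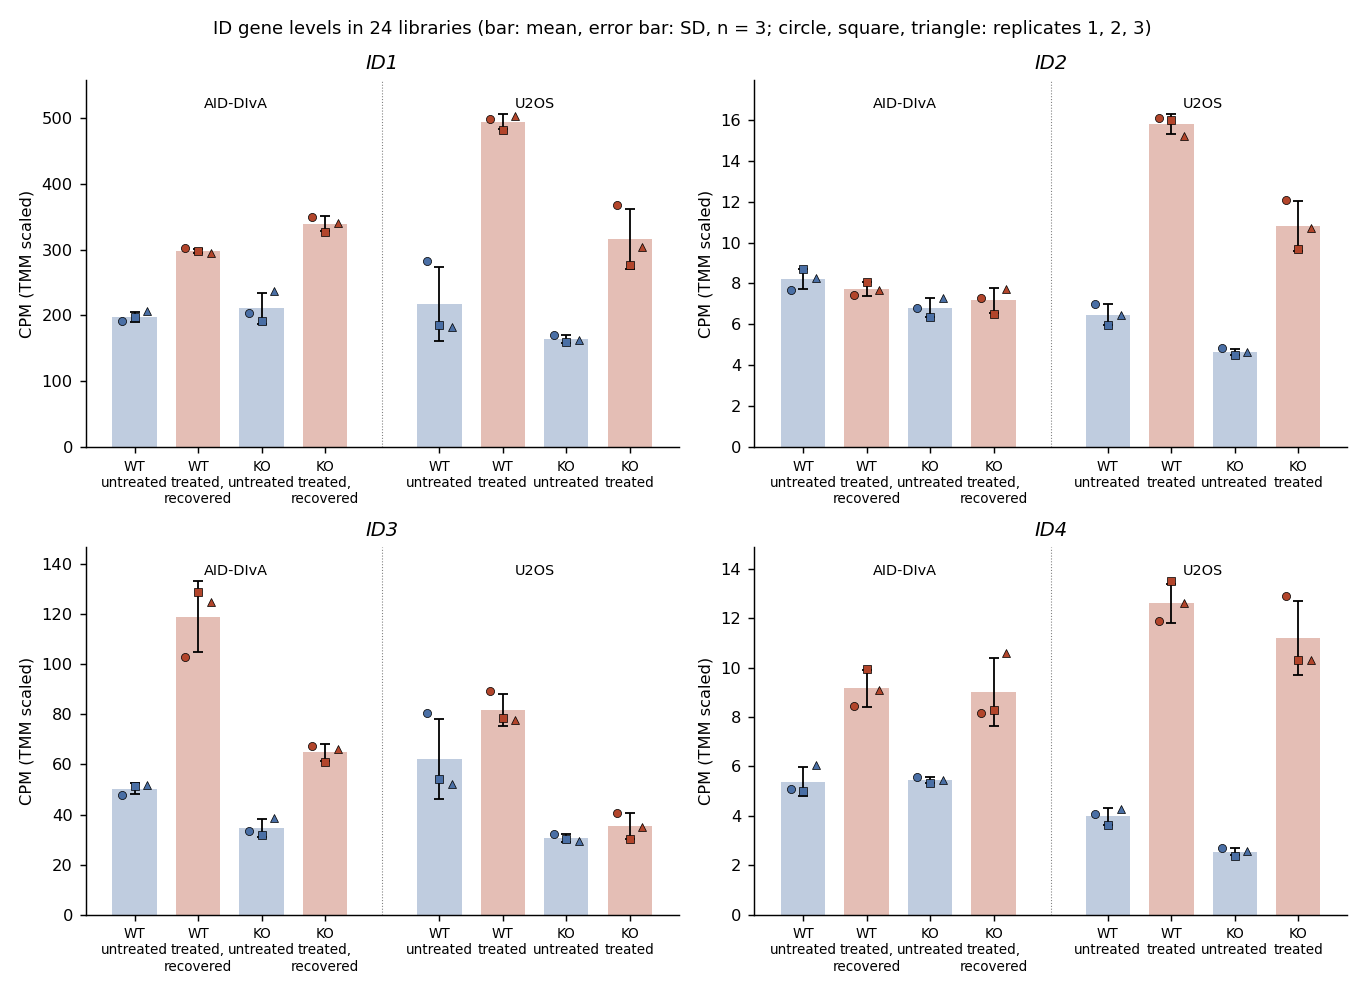
Levels of ID1, ID2, ID3 and ID4 in library-scaled counts (CPM, linear axes from 0) in the 8 groups, with bars for means, error bars for the SD (n = 3) and one symbol per replicate. ID1, ID2 and ID4 peak in treated U2OS cells (494, 15.8 and 12.6 CPM in WT), whereas ID3 peaks in recovered WT AID-DIvA cells (119 CPM).

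The targeted gene, ID3, was lower in KO than in WT cells at every matched condition, but its RNA was not lost. In untreated AID-DIvA cells ID3 was measured at 47.9, 51.4 and 51.9 CPM in WT and at 33.3, 32.0 and 38.8 CPM in KO libraries. Here CPM are library-scaled counts with TMM factors over all 24 libraries. After recovery the WT libraries had 103, 129 and 125 CPM and the KO libraries 67.3, 61.1 and 66.0 CPM. Untreated U2OS cells had 80.7, 54.2 and 52.1 CPM in WT and 32.2, 30.2 and 29.3 CPM in KO. In treated U2OS cells the values were 89.3, 78.4 and 77.6 CPM in WT and 40.6, 30.4 and 35.2 CPM in KO. WT and KO libraries did not overlap in any of these 4 comparisons. The share of all genes without such overlap was not computed. Here and below, an absence of overlap therefore only describes the libraries of the gene named.

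All adjusted p values come from the quasi-likelihood test of edgeR, adjusted over all genes tested after Benjamini and Hochberg. ID3 fell to 0.677-fold in untreated AID-DIvA KO cells (log2 fold change -0.56 ± 0.07 (SE), adjusted p = 8.4e-06) and to 0.538-fold after recovery (-0.89 ± 0.09, adjusted p = 7.3e-05). It fell to 0.489-fold in untreated U2OS KO cells (-1.03 ± 0.17, adjusted p = 0.0065) and to 0.433-fold in treated ones (-1.21 ± 0.09, adjusted p = 4.9e-07). Without untreated WT U2OS replicate 1 the difference in untreated U2OS cells was -0.80 (adjusted p = 1.6e-17). Counts per gene do not show which part of ID3 was altered, so they neither measure functional ID3 RNA nor ID3 protein, and whether altered ID3 RNA was counted with intact RNA cannot be told apart.

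Before recovery, mocetinostat raised ID1, ID2 and ID4 in both genotypes, while ID3 moved little. ID1 rose from 282, 185 and 183 CPM in untreated WT to 498, 481 and 503 CPM in treated WT libraries. In KO cells ID1 rose from 171, 159 and 162 CPM to 367, 277 and 304 CPM. ID2 rose from 7.00, 5.96 and 6.48 CPM to 16.1, 16.0 and 15.2 CPM in WT. In KO cells ID2 went from 4.83, 4.52 and 4.67 CPM to 12.1, 9.68 and 10.7 CPM. For these 2 genes no treated library overlapped an untreated one of the same genotype. ID4, the least abundant member, rose from 4.07, 3.61 and 4.26 CPM to 11.9, 13.5 and 12.6 CPM in WT. The KO libraries had 2.70, 2.39 and 2.57 CPM of ID4 when untreated and 12.9, 10.3 and 10.3 CPM when treated. The groups of ID4 did not overlap in either genotype.

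In WT cells before recovery, ID1 was 2.29-fold (log2 fold change 1.20 ± 0.17 (SE), adjusted p = 8.0e-04), ID2 2.45-fold (1.29 ± 0.09, adjusted p = 2.5e-05) and ID4 3.20-fold (1.68 ± 0.11, adjusted p = 1.3e-05) the untreated level. ID3 had a log2 fold change of 0.40 ± 0.17 that missed the threshold of 0.05 (adjusted p = 0.088). Thus 3 of 4 members were called higher and 0 lower, where 26.0% of the 21797 genes tested were called higher and 22.9% lower. Untreated replicate 1 decided the ID3 call: without it the change was 0.63 (adjusted p = 3.7e-12), and ID1 had 1.43 (adjusted p = 1.1e-36). Over all genes 33.9% of 22423 were then called higher and 32.5% lower.

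In KO cells before recovery all 4 members were called higher, where 35.8% of 21176 genes were higher and 34.0% lower. ID4 was 4.41-fold (2.14 ± 0.10, adjusted p = 2.1e-14), ID2 2.33-fold (1.22 ± 0.09, adjusted p = 3.0e-11) and ID1 1.94-fold (0.95 ± 0.08, adjusted p = 2.2e-07) the untreated level. The rise of ID3 was the smallest, 1.16-fold (0.22 ± 0.08, adjusted p = 0.021), and treated and untreated KO libraries overlapped. That call was lost without untreated replicate 3 (0.19, adjusted p = 0.056) or treated replicate 1 (0.11, adjusted p = 0.099), and with all 4 U2OS groups in one fit (0.22, adjusted p = 0.23).

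After recovery the order of the members was different: ID3 had the largest fold change in both genotypes, ID1 and ID4 rose less, and ID2 was not called. In WT AID-DIvA cells ID3 rose from 47.9 to 51.9 CPM in untreated to 103 to 129 CPM in recovered libraries, a 2.37-fold rise (1.24 ± 0.08, adjusted p = 9.1e-08). In KO cells it rose from 32.0 to 38.8 CPM to 61.1 to 67.3 CPM, 1.86-fold (0.90 ± 0.09, adjusted p = 3.8e-05). Recovered KO libraries thus lay above untreated WT libraries in ID3 level.

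ID1 was measured at 191, 197 and 206 CPM in untreated WT and at 302, 298 and 295 CPM in recovered WT libraries, 1.52-fold (0.60 ± 0.04, adjusted p = 6.7e-08). In KO cells it went from 204, 191 and 237 CPM to 349, 326 and 340 CPM, 1.61-fold (0.68 ± 0.08, adjusted p = 1.5e-04). ID4 rose from 5.07, 5.02 and 6.07 CPM to 8.45, 9.94 and 9.10 CPM in WT, 1.70-fold (0.77 ± 0.09, adjusted p = 1.9e-05). In KO cells ID4 rose from 5.57, 5.33 and 5.44 CPM to 8.15, 8.30 and 10.6 CPM, 1.66-fold (0.73 ± 0.12, adjusted p = 9.1e-04). For both genes the recovered libraries lay above the untreated ones without overlap.

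ID2 overlapped between groups after recovery. WT libraries had 7.70, 8.69 and 8.29 CPM untreated and 7.42, 8.06 and 7.70 CPM recovered (-0.08 ± 0.08, adjusted p = 0.40). KO libraries had 6.82, 6.35 and 7.27 CPM untreated and 7.30, 6.49 and 7.72 CPM recovered (0.07 ± 0.10, adjusted p = 0.58). In each genotype 3 of 4 members were called higher and 0 lower. Over all genes 23.9% of 20289 were higher and 23.0% lower in WT cells, and 20.2% of 20362 higher and 19.9% lower in KO cells. With 4 members, these counts are coarse beside such backgrounds.

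**Figure D2:**
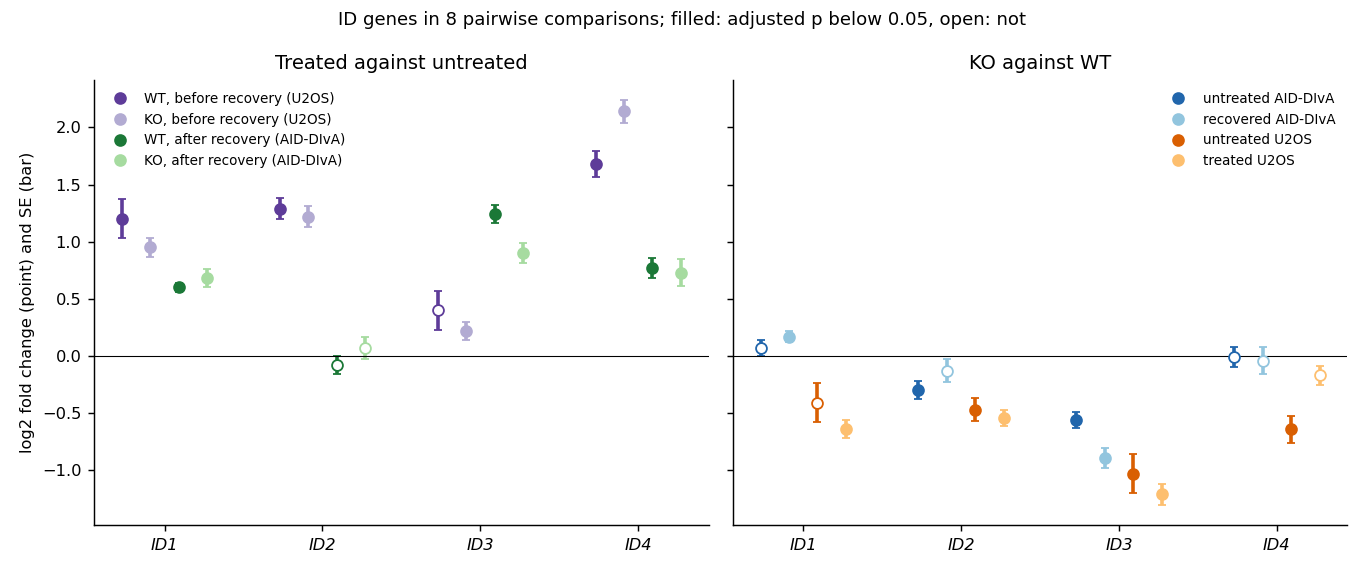
Log2 fold changes with their SE for the 4 ID genes, treated against untreated cells on the left and KO against WT cells on the right, with filled points for an adjusted p below 0.05. ID2 is at 1.29 and 1.22 before recovery (U2OS) and at -0.08 and 0.07 after it (AID-DIvA). ID3 is at 0.40 and 0.22 before recovery and at 1.24 and 0.90 after it, and is below 0 in all 4 comparisons of KO with WT.

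The difference between the responses was tested over all 24 libraries, as the response of a genotype after recovery minus its response before recovery. Of the 8 tests, 7 passed the threshold. The response of ID2 was smaller after recovery, by -1.38 ± 0.13 on the log2 scale in WT (adjusted p = 1.7e-09) and by -1.14 ± 0.13 in KO cells (adjusted p = 6.8e-08). ID4 behaved likewise, with -0.91 ± 0.16 in WT (adjusted p = 3.3e-05) and -1.40 ± 0.16 in KO cells (adjusted p = 7.9e-08). ID1 differed by -0.60 ± 0.16 in WT cells (adjusted p = 0.0041), and by -0.26 ± 0.16 in KO cells, which did not pass (adjusted p = 0.20). ID3 alone had the opposite sign, with a response larger after recovery by 0.84 ± 0.18 in WT (adjusted p = 3.8e-04) and 0.69 ± 0.18 in KO cells (adjusted p = 0.0029). All of these tests set AID-DIvA against U2OS libraries, so stage and cell line label cannot be told apart in them. Of 23087 genes, 22.6% were called higher and 22.8% lower in WT, and 21.7% higher and 24.3% lower in KO cells. Without untreated WT U2OS replicate 1 the WT differences were -0.83 for ID1, -1.43 for ID2, 0.62 for ID3 and -0.92 for ID4, all still past the threshold, and 24.1% of 23631 genes were higher and 23% lower.

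The order of the 8 group means shows the same contrast, with the reservation that the sets also differ in cell line label. TMM factors were set over all 24 libraries. ID2 was highest in treated WT U2OS cells (15.2 to 16.1 CPM), then in treated KO U2OS cells (9.68 to 12.1 CPM), and neighbouring groups overlapped from untreated WT AID-DIvA cells (7.70 to 8.69 CPM) down to untreated WT U2OS cells (5.96 to 7.00 CPM). Untreated KO U2OS cells were lowest in ID1, ID2, ID3 and ID4. ID3 was highest in recovered WT AID-DIvA cells, followed by treated WT U2OS cells (77.6 to 89.3 CPM) without overlap, and the lowest 3 groups, all KO, overlapped their neighbours between 29.3 and 40.6 CPM. ID4 had its highest means in treated WT and KO U2OS cells, which overlapped, and then in recovered WT and KO AID-DIvA cells, which overlapped as well. Across the 8 group means, centred within each set, Pearson's r of log2 CPM was 0.94 between ID1 and ID4, 0.89 between ID2 and ID4 and 0.85 between ID1 and ID2, but 0.63, 0.45 and 0.50 between ID3 and ID1, ID2 and ID4. These values are descriptions over 8 groups that share treatments and libraries.

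KO cells differed from WT cells in other ID genes as well. In untreated U2OS cells ID2 was 0.720-fold (-0.47 ± 0.10, adjusted p = 0.020) and ID4 0.641-fold (-0.64 ± 0.12, adjusted p = 0.012) the WT level. ID1 was 171, 159 and 162 CPM in KO against 282, 185 and 183 CPM in WT libraries, with no overlap but an adjusted p of 0.15 (-0.41 ± 0.17). Leaving out WT replicate 1 made the ID1 difference smaller and called (-0.17, adjusted p = 1.9e-04), while ID2 (-0.41) and ID4 (-0.62) kept adjusted p values of 7.6e-04 and 1.2e-04. Without any one of the KO replicates the ID2 and ID4 calls were lost (adjusted p between 0.08 and 0.11 for ID2 and between 0.05 and 0.072 for ID4), as was that of ID2 without WT replicate 3 (adjusted p = 0.056). Counting ID3, 3 members were lower and 0 higher, where 8.63% of 20621 genes were lower and 6.56% higher. Without WT replicate 1 all 4 members were lower, where 20.6% of 20973 genes were lower and 20.5% higher.

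In treated U2OS cells ID1 was 0.640-fold (-0.64 ± 0.08, adjusted p = 1.6e-04) and ID2 0.687-fold (-0.54 ± 0.07, adjusted p = 5.7e-07) the WT level. ID4 overlapped between genotypes at 10.3 to 12.9 CPM in KO and 11.9 to 13.5 CPM in WT libraries and was not called (-0.17 ± 0.08, adjusted p = 0.089), but it was without KO replicate 1 (-0.28, adjusted p = 0.0016). Again 3 members were lower and 0 higher, where 19.0% of 21800 genes were lower and 19.0% higher.

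In AID-DIvA cells ID2 was 0.812-fold in untreated KO cells (-0.30 ± 0.08, adjusted p = 0.0068), where ID1 (0.07 ± 0.07, adjusted p = 0.49) and ID4 (-0.01 ± 0.09, adjusted p = 0.93) were not called. With ID3, 2 members were lower and 0 higher, where 18.1% of 20441 genes were lower and 18.6% higher. After recovery ID1 was 1.12-fold higher in KO cells (0.17 ± 0.05, adjusted p = 0.043), with 326 to 349 CPM in KO and 295 to 302 CPM in WT libraries. This call was lost in 5 of 6 fits that left out a library (adjusted p up to 0.18) and with DESeq2 (adjusted p = 0.08). ID2 (-0.13 ± 0.10, adjusted p = 0.40) and ID4 (-0.04 ± 0.12, adjusted p = 0.87) were not called, so that 1 member was higher and 1, ID3, lower. Of 20100 genes 12.6% were higher and 11.1% lower.

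Whether the KO changed the response of an ID gene to the drug was tested as an interaction within each set, and edgeR called 0 of 8 such tests, of which 2 had an unadjusted p below 0.05. After recovery the rise of ID3 was smaller in KO than in WT cells (-0.34 ± 0.12, adjusted p = 0.26). Before recovery that of ID4 was larger in KO cells (0.46 ± 0.16, adjusted p = 0.18). These were the 2 with the low unadjusted p. The other interactions had adjusted p values between 0.66 and 0.96. Over all genes 0.762% of 21265 were called higher and 0.451% lower after recovery, and 1.10% of 22647 higher and 1.06% lower before it. Without untreated WT U2OS replicate 1 the interaction of ID1 before recovery became -0.48 and was called (adjusted p = 0.040), where 4.46% of 23164 genes were higher and 4.56% lower.

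Of the 3 E proteins, the partners that ID proteins bind, TCF4 and TCF12 fell with the drug in all 4 treatment comparisons. Of all genes tested, 22.9% were lower in WT and 34.0% in KO cells before recovery, and 23.0% and 19.9% after it. TCF4 fell from 37.9, 58.0 and 58.8 CPM in untreated to 19.7, 19.6 and 19.6 CPM in treated WT U2OS libraries (-1.38 ± 0.16, adjusted p = 3.0e-04) and changed by -1.36 ± 0.05 in KO cells (adjusted p = 2.1e-16). Untreated WT replicate 1 (37.9 CPM) lay below replicates 2 and 3, and still above every treated library. After recovery, in AID-DIvA cells, TCF4 was also lower, at 35.8 to 39.4 CPM against 63.4 to 67.8 CPM in untreated WT cells (-0.79 ± 0.05, adjusted p = 5.0e-08) and -0.78 ± 0.10 in KO cells (adjusted p = 2.4e-04). TCF12, too, was lowest among untreated WT U2OS libraries in replicate 1 (76.8, 115 and 116 CPM, against 62.5 to 64.6 CPM when treated). It fell as well, with -0.67 in WT (adjusted p = 0.0073) and -0.66 in KO cells (adjusted p = 5.8e-12) before recovery and -0.35 (adjusted p = 3.0e-05) and -0.38 (adjusted p = 7.9e-04) after it. TCF3, the most abundant of the 3 by TPM, fell before recovery (-0.35, adjusted p = 0.038 in WT, and -0.36, adjusted p = 1.1e-06 in KO) and was not called after it (-0.04 and 0.13), and its response differed between the sets (0.32, adjusted p = 0.039 in WT, and 0.50, adjusted p = 0.0018 in KO cells). For TCF3 untreated WT U2OS replicate 1 was the highest (283, 216 and 216 CPM, against 182 to 188 CPM when treated). Without it TCF3 changed by -0.21 in WT cells before recovery (adjusted p = 2.5e-07), and the difference between the sets in WT lost its call (0.18, adjusted p = 0.12). Between KO and WT cells no E protein was called except TCF12 in treated U2OS cells (0.20 ± 0.05, adjusted p = 9.4e-04). Without that replicate, TCF4 was called lower (-0.24, adjusted p = 6.6e-06) and TCF3 higher (0.12, adjusted p = 0.004, from -0.02) in untreated U2OS KO cells.

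Added over the 4 members, ID transcripts reached 3.70 ± 0.107 times the summed TPM of TCF3, TCF4 and TCF12 in untreated WT AID-DIvA cells and 6.67 ± 0.176 times after recovery (SD, n = 3). In KO AID-DIvA cells the ratio was 3.71 ± 0.188 untreated and 6.17 ± 0.161 after recovery. In WT U2OS cells it was 4.92, 3.67 and 3.59 in untreated libraries and 12.1, 11.6 and 12.3 in treated ones. In KO U2OS cells the ratio went from 2.95, 2.84 and 2.81 to 8.13, 6.85 and 7.10. No treated library overlapped an untreated one of its own set and genotype, and treated WT U2OS libraries had the highest ratios of all. The ratio compares RNA levels only, and ID1 made up most of its numerator.

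**Figure D3:**
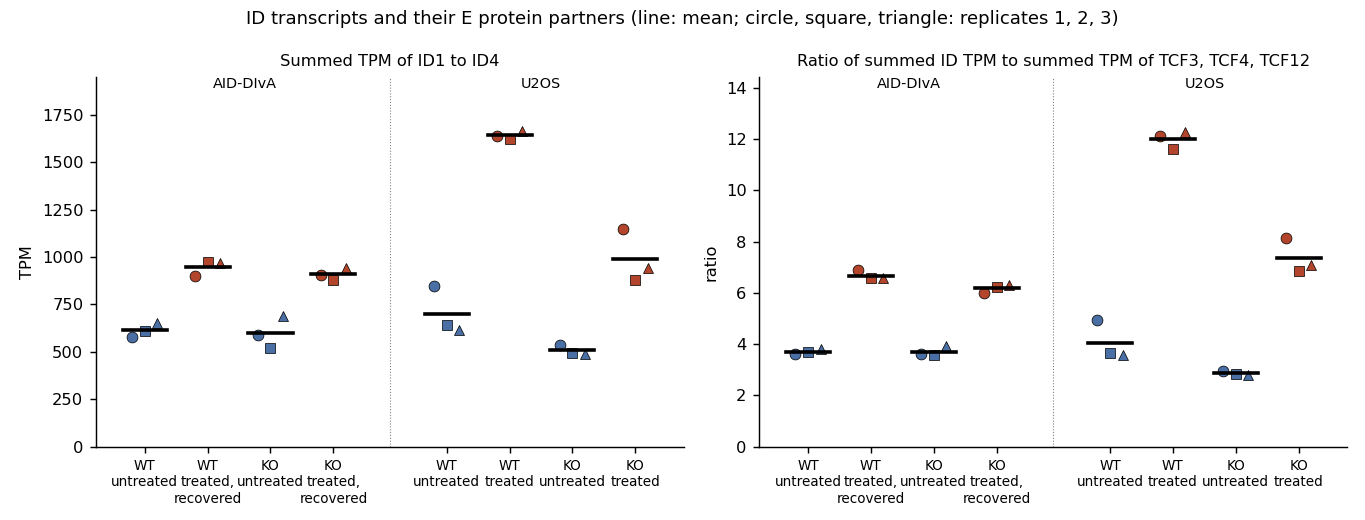
Summed TPM of the 4 ID genes (left) and its ratio to the summed TPM of the 3 E protein genes (right) for each library, with a line at the mean of each group. The ratio lies between 3.59 and 4.92 in untreated WT libraries of both sets, at 6.56 to 6.88 in recovered WT and at 11.6 to 12.3 in treated WT U2OS libraries.

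Among 20 class II bHLH factors, the tissue-specific partners of E proteins, 9 were tested after recovery and 10 or 11 before it, the rest being too low. After recovery 2 were called higher and 0 lower in WT and 1 higher and 2 lower in KO cells, and before it 4 were higher and 2 lower in WT and 5 higher and 2 lower in KO cells. Of all genes tested, 23.9% were higher and 23.0% lower in WT and 20.2% and 19.9% in KO cells after recovery. Before it the shares were 26.0% and 22.9% in WT and 35.8% and 34.0% in KO cells, so counts of so few factors are coarse. OLIG2, known from oligodendrocyte development, was higher with the drug in all 4 treatment comparisons, from 0.66 in KO cells after recovery (adjusted p = 5.0e-04) to 1.24 in KO cells before it (adjusted p = 1.9e-12). TCF15, a factor of somite development, rose before recovery (1.50, adjusted p = 6.2e-04 in WT, and 1.97, adjusted p = 1.5e-12 in KO cells) but was not called after it (-0.06 and 0.30), and the difference between the responses was called in both genotypes (-1.56 and -1.66). OLIG1, a relative of OLIG2, rose before recovery from 0.666, 0.427 and 0.569 CPM to 2.26, 1.94 and 2.61 CPM in WT (2.05 ± 0.22, adjusted p = 1.7e-04) and by 2.25 ± 0.20 in KO cells (adjusted p = 1.1e-09). Its response was smaller after recovery, by -2.54 in WT (adjusted p = 6.3e-07) and -3.69 in KO cells (adjusted p = 4.6e-09), and in KO cells it was then lower than untreated (-1.43, adjusted p = 0.0021).

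ATOH8 moved the other way. Before recovery it fell from 1.33, 1.12 and 0.986 CPM to 0.382, 0.357 and 0.395 CPM in WT (-1.58 ± 0.21, adjusted p = 5.9e-04) and changed by -2.41 ± 0.26 in KO cells (adjusted p = 1.7e-08). After recovery it was called in KO cells (-0.58 ± 0.16, adjusted p = 0.016) and missed the threshold in WT (-0.29, adjusted p = 0.19). The difference between the responses was 1.30 in WT (adjusted p = 4.4e-04) and 1.83 in KO cells (adjusted p = 2.3e-05). TWIST2 was higher in recovered WT AID-DIvA cells (0.39, adjusted p = 0.037) and in untreated KO against WT AID-DIvA cells (0.42, adjusted p = 0.025), and TCF15 in treated KO against WT U2OS cells (0.41, adjusted p = 7.1e-04). Without untreated WT U2OS replicate 1 TWIST2 was also called before recovery in WT cells (0.78, adjusted p = 1.3e-05, from 0.46). TAL1, a factor of blood development that pairs with E proteins, was lower in KO than in WT cells in all 4 comparisons, between -0.73 in untreated AID-DIvA (adjusted p = 8.8e-06) and -0.58 in treated U2OS cells (adjusted p = 7.1e-05). The median over the tested factors was -0.14 in WT and -0.19 in KO cells after recovery and 0.34 and 0.35 before it, whereas the median of all genes tested lay between -0.042 and 0.007 in every comparison.

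USP1 and its activator WDR48, which remove ubiquitin from ID proteins, and FZR1, an activator of the anaphase-promoting complex that marks ID proteins for degradation, were all lower before recovery in both genotypes. Of all genes tested, 22.9% were lower in WT and 34.0% in KO cells, so a count of so few genes is coarse. USP1 changed by -0.59 in WT (adjusted p = 4.1e-04) and -0.59 in KO cells (adjusted p = 2.8e-09), WDR48 by -0.37 and -0.45 and FZR1 by -0.31 and -0.34. FZR1 was highest in untreated WT replicate 1 (95.5, 77.0 and 76.7 CPM), without which its change in WT was -0.19 (adjusted p = 2.2e-05, against 0.04 with it). After recovery, in AID-DIvA cells, USP1 (-0.37, adjusted p = 2.1e-04 in WT, and -0.61, adjusted p = 0.028 in KO) and FZR1 (-0.24 and -0.30) were also lower, while WDR48 was not called (-0.11 and -0.05). Replicate 1 of the recovered KO libraries lay apart in USP1 (71.0, 117 and 132 CPM, against 169, 170 and 155 CPM untreated).

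CDKN1A, which encodes the CDK inhibitor p21, rose in the same comparisons as ID1 and ID4. It went from 154 to 161 CPM in untreated to 323 to 381 CPM in recovered WT AID-DIvA libraries (1.21 ± 0.06, adjusted p = 4.0e-09) and by 0.94 ± 0.07 in KO cells (adjusted p = 7.3e-06). Before recovery it rose by 0.92 ± 0.10 in WT (adjusted p = 1.9e-04) and 0.95 ± 0.05 in KO cells (adjusted p = 5.4e-14). CDKN1B, which encodes p27, moved the other way in all 4 treatment comparisons, from -0.76 in WT before recovery (adjusted p = 1.3e-04) to -1.10 in KO cells after it (adjusted p = 6.7e-06). In KO against WT cells CDKN1B was higher in all 4 comparisons, between 0.66 in treated U2OS (adjusted p = 5.9e-11) and 0.94 in untreated AID-DIvA cells (adjusted p = 3.8e-09). CDKN1C, which encodes p57, fell in 3 of the 4 treatment comparisons and was not called in WT cells before recovery (-0.34, adjusted p = 0.15). It was higher in KO than in WT AID-DIvA cells, untreated (0.69, adjusted p = 2.3e-05) and recovered (0.84, adjusted p = 4.7e-04), as was CDKN1A in untreated ones (0.15, adjusted p = 0.027). The CDKN1A response of WT cells was larger after recovery (0.29, adjusted p = 0.04), a call lost without untreated WT U2OS replicate 1 (0.19, adjusted p = 0.089). Of the 5 CDK inhibitors, CDKN2B was too low to be tested in any comparison and CDKN2A in any comparison within the AID-DIvA set.

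The BMP and SMAD pathway, the main known inducer of ID genes, was covered by 27 genes. In the treatment comparisons members of each role were called in both directions. The exception was the SMADs that carry the signal in WT cells before recovery, with 0 higher and 2 lower. In WT cells before recovery 8 of 27 were higher and 7 lower (median 0.17), and after recovery 6 of 26 were higher and 11 lower (median -0.15). In KO cells 12 of 27 were higher and 12 lower before recovery (median -0.00) and 4 of 26 higher and 12 lower after it (median -0.17). The shares of all genes called are those given above for each comparison, and the median of all genes was -0.000 in WT and -0.023 in KO cells after recovery and 0.006 and 0.001 before it. Without untreated WT U2OS replicate 1, a further 7 of the 27 were called in WT cells before recovery and 0 calls were lost. Over all genes 33.9% of 22423 were then higher and 32.5% lower.

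Among the ligands BMP2 rose in all 4 treatment comparisons. In WT cells it went from 5.35 to 5.55 CPM to 8.88 to 10.9 CPM after recovery, and from 5.45 to 6.24 CPM to 17.8 to 18.9 CPM before it. Its log2 fold change after recovery was 0.86 ± 0.09 in WT (adjusted p = 3.2e-06) and 0.83 ± 0.08 in KO cells (adjusted p = 3.6e-05). BMP4 fell in all 4, most in WT cells after recovery, from 80.8 to 85.3 CPM to 15.9 to 22.3 CPM (-2.06 ± 0.10, adjusted p = 7.1e-08). In KO cells BMP4 fell by 1.03 only, and the difference between the genotypes was called (1.04 ± 0.13, adjusted p = 7.3e-04). Before recovery that difference had the opposite sign (-0.59 ± 0.11, adjusted p = 0.014). BMP6 rose before recovery from 1.39 to 1.57 CPM to 17.6 to 18.2 CPM in WT (3.59 ± 0.10, adjusted p = 4.5e-07) and by 3.10 ± 0.11 in KO cells (adjusted p = 2.1e-15). The responses of BMP5 (-0.46, adjusted p = 0.017) and of the inhibitor SMAD7 (-0.52, adjusted p = 0.01) before recovery were lower in KO than in WT cells. Without untreated WT U2OS replicate 1, a further 7 of the 27 genes were called for this difference between genotypes before recovery. Over all genes 4.46% of 23164 were then higher and 4.56% lower. Of 7 receptors, 5 were lower and 1 higher after recovery in each genotype, and of the 4 SMADs that carry the signal 1 was higher and 1 lower.

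Several inhibitors responded differently between the sets, in which stage and cell line label cannot be told apart. NOG, which encodes the BMP antagonist noggin, fell before recovery from 54.8, 33.6 and 32.6 CPM to 8.63, 8.91 and 8.47 CPM in WT (-2.21 ± 0.21, adjusted p = 9.9e-05) and by 2.15 in KO cells (adjusted p = 7.7e-13). Replicate 1 was again apart, here above the other untreated libraries. After recovery, in AID-DIvA cells, NOG was instead higher than in untreated cells, by 0.61 ± 0.07 in WT (adjusted p = 1.7e-05) and 0.77 ± 0.10 in KO cells (adjusted p = 2.3e-04). The difference in its response between the sets was 2.82 ± 0.21 in WT (adjusted p = 1.9e-10) and 2.93 ± 0.21 in KO cells (adjusted p = 5.3e-11). BAMBI, a decoy receptor, rose before recovery by 1.93 ± 0.17 in WT (adjusted p = 6.5e-05) and 2.11 ± 0.08 in KO cells (adjusted p = 2.8e-16) and was not called after it (-0.38 and -0.17). FST, which encodes follistatin, fell after recovery by 0.87 in WT (adjusted p = 4.0e-07) and by 1.04 in KO cells (adjusted p = 8.2e-06), and CHRD, which encodes chordin, fell by 0.69 in WT (adjusted p = 1.8e-05).

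Between genotypes more BMP and SMAD genes were called higher than lower in KO cells. In untreated AID-DIvA cells 13 of 26 were higher and 1 lower (median 0.17), after recovery 11 of 26 and 1 (median 0.24), in untreated U2OS cells 7 of 26 and 1 (median 0.12) and in treated U2OS cells 13 of 27 and 5 (median 0.13). Of all genes tested, 18.6% were higher and 18.1% lower in untreated and 12.6% and 11.1% in recovered AID-DIvA cells. In untreated U2OS cells 6.56% were higher and 8.63% lower, and in treated ones 19.0% in each direction. NOG was higher in KO cells by 1.36 ± 0.08 in untreated AID-DIvA (adjusted p = 6.0e-09), 1.53 ± 0.09 after recovery (adjusted p = 2.8e-06) and 0.94 ± 0.20 in untreated U2OS cells (adjusted p = 0.018), and it was 2.01-fold the WT level in treated U2OS cells (adjusted p = 4.5e-10). In untreated U2OS cells WT replicate 1 was the highest of the WT libraries (54.8 CPM), and without it the difference was 1.23 (adjusted p = 1.4e-22). BMP4 (1.56, adjusted p = 1.1e-05) and BMP6 (0.64, adjusted p = 0.013) were higher in recovered KO than in WT cells, BMP6 in untreated AID-DIvA (1.53, adjusted p = 1.7e-07) and BMP4 in untreated U2OS cells (0.89, adjusted p = 7.9e-04). FST (0.60, adjusted p = 6.9e-09) and the receptor gene BMPR1B (0.59, adjusted p = 1.4e-06) were higher in treated U2OS KO cells. BAMBI was also higher in all 4 comparisons, by 0.86 to 1.39, while SMURF2, a ubiquitin ligase for SMADs, was lower in KO cells in all 4, between -0.61 in untreated AID-DIvA (adjusted p = 5.6e-08) and -0.43 in untreated U2OS cells (adjusted p = 0.025). Without that replicate a further 4 of the 26 were called in untreated U2OS cells and 0 calls were lost. Over all genes 20.5% of 20973 were then higher and 20.6% lower.

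**Figure D4:**
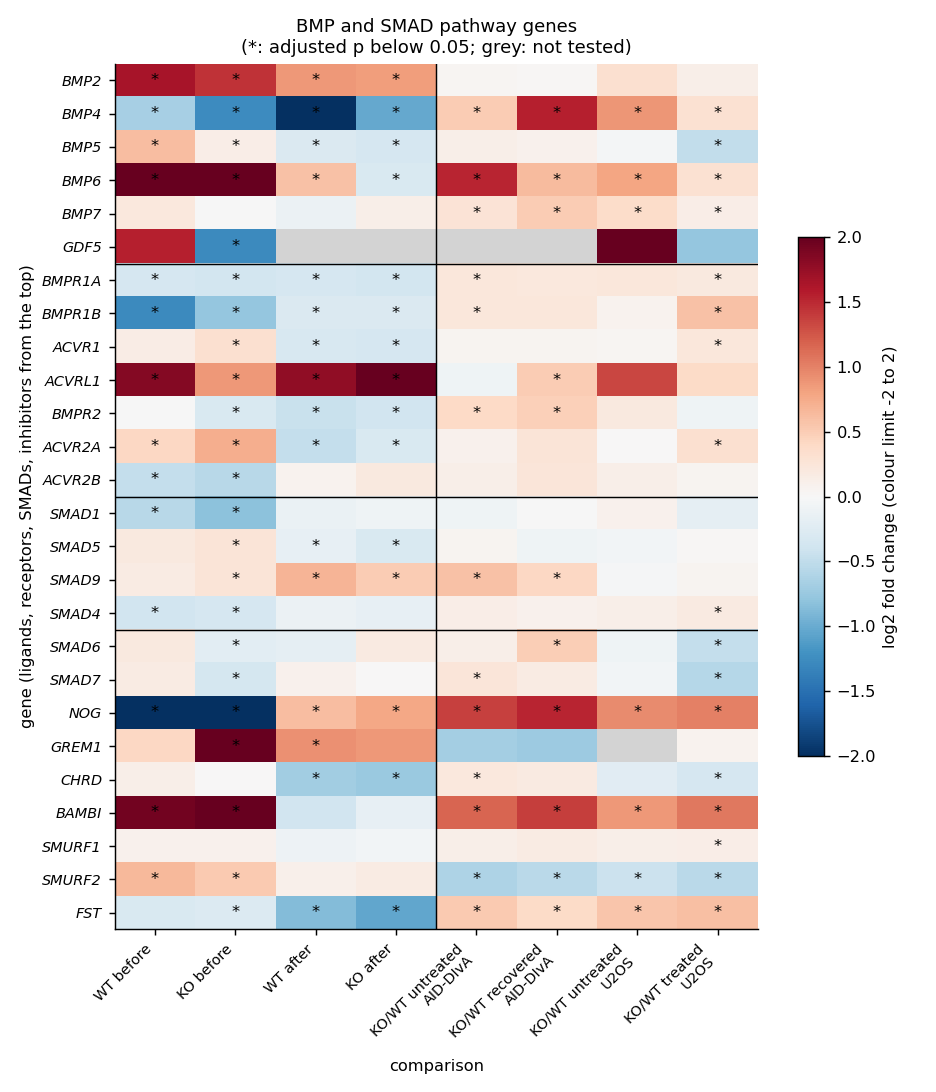
Log2 fold changes (colour, limited to -2 and 2) of 26 BMP and SMAD pathway genes, ordered from ligands to inhibitors, in the 4 treatment and 4 genotype comparisons, with asterisks for an adjusted p below 0.05 and grey where a gene was not tested. NOG is blue before recovery and red in the other 6 columns, and BMP4 is blue in all treatment columns and red in all genotype columns.

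The nearest genes on each side with a mean of at least 1 CPM, 26.7 to 1611 kb away, were compared with the members, by a rule set after the tables were available. Beside ID3, E2F2 fell before recovery (-0.52, adjusted p = 6.0e-04 in WT, and -0.59, adjusted p = 2.6e-10 in KO) and was higher in KO than in WT cells, opposite to ID3. After recovery E2F2 rose in WT cells (0.19, adjusted p = 0.014), as ID3 did, and was not called in KO cells (0.06). The response of E2F2 after minus before recovery had the sign of that of ID3. It was 0.70 in WT (adjusted p = 3.7e-07) and 0.66 in KO cells (adjusted p = 8.4e-07). RPL11, on the other side of ID3, also rose after recovery (0.15, adjusted p = 0.0042 in WT, and 0.46, adjusted p = 0.0024 in KO). It was lower in KO than in WT cells in untreated AID-DIvA cells only (-0.19, adjusted p = 0.0037). Beside ID4, MBOAT1 fell before recovery (-0.40, adjusted p = 0.0048 in WT, and -0.46, adjusted p = 2.3e-05 in KO). BCL2L1, beside ID1, rose in all 4 treatment comparisons, by 0.16 to 0.46. KIDINS220, beside ID2, fell after recovery (-0.41, adjusted p = 9.8e-06 in WT, and -0.40, adjusted p = 7.7e-04 in KO), where ID2 was not called. Before recovery KIDINS220 was higher in KO cells (0.20, adjusted p = 4.4e-04), as ID2 was, and not called in WT (0.37, adjusted p = 0.13). Its response after minus before recovery was -0.78 in WT (adjusted p = 2.6e-04) and -0.59 in KO cells (adjusted p = 0.0032), the sign of ID2. Such differences set AID-DIvA against U2OS libraries.

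**Figure D5:**
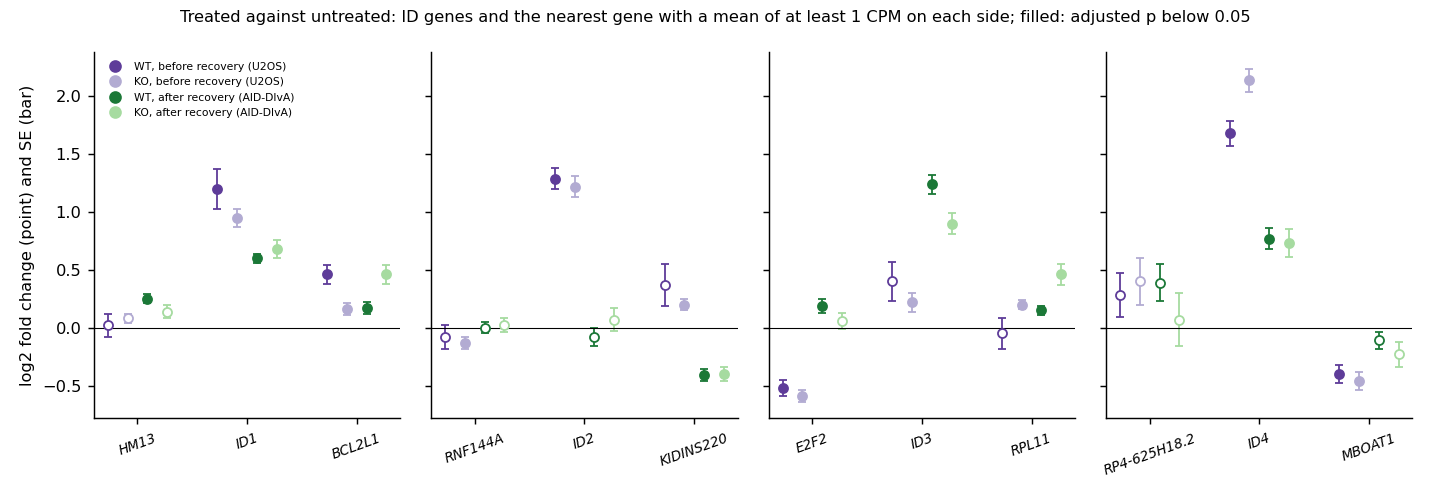
Log2 fold changes with their SE, treated against untreated, for each ID gene (middle of each panel) and the nearest gene with a mean of at least 1 CPM on either side, filled where the adjusted p was below 0.05. Before recovery the neighbours lie between -0.59 (E2F2) and 0.46 (BCL2L1), while ID1, ID2 and ID4 lie between 0.95 and 2.14.

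The genes most like each member over the 8 group means, by Pearson's r of log2 CPM centred within each set among 15589 genes with a mean of at least 1 CPM, were DDN, TMEM74B and COL20A1 for ID1 (r = 0.992, 0.992 and 0.989), ADRA2B, MPV17L2 and VPS8 for ID2 (0.996, 0.992 and 0.991), CHI3L1, CACNA2D4 and PARS2 for ID3 (0.991, 0.987 and 0.985) and ANKRD6, LIPA and WISP2 for ID4 (0.999 each). CACNA2D4, a calcium channel subunit, had group means of 3.26 CPM in untreated and 8.62 CPM in recovered WT AID-DIvA cells and of 1.44 and 3.57 CPM in KO cells, a rise with recovery and a lower level in KO cells as for ID3. WISP2, a secreted protein of the CCN family, had 2.43 CPM in untreated and 14.7 CPM in treated WT U2OS cells but 1.58 and 3.88 CPM in the WT AID-DIvA set. With so many genes compared over 8 points, high values of r arise readily, and they are given as descriptions.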

How the data were processed

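The authors prepared stranded total RNA libraries, aligned paired reads to hg19/GRCh37 with STAR and assigned them to genes with featureCounts. The deposited tables hold counts per gene from either strand and by strand, with TPM and FPKM values the authors computed from them. The tool versions, and whether the identifiers follow the annotation named in the methods, are not given in the sources used here. Counts from either strand were tested with edgeR 4.0.16 in R 4.3.3, with TMM factors, the filter filterByExpr, and its quasi-likelihood test in robust mode, adjusted after Benjamini and Hochberg over all genes tested, with calls at an adjusted p below 0.05. Pairwise comparisons used their 6 libraries, interactions 12, and differences between the sets 24. SE was obtained from the log2 fold change and the F statistic, as their ratio after taking the root of F. CPM were scaled with TMM factors over all 24 libraries, and TPM was used for levels per length. No 2 replicates agreed within sampling noise.

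The members and gene lists were chosen with earlier results of these data known. Named were the ID genes, E proteins and turnover genes, from each other list, in each comparison, up to 4 called members with a mean of at least 1 CPM over the set and the largest change, and the 3 genes most like each member. A gene named in one comparison is also given in others. Alternatives were DESeq2 1.42.0, other scaling and filters, all groups of a set in one fit, the replicate number as a block, sense-strand counts and each library left out. The steps were tested on simulated counts. PECAM1, on the marker list, was not analysed here. Some genes of the lists, counted with them, are not reported here.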

Additional observations from a re-analysis of the deposited data

Results flagged for a closer look

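Of the 8 tests of whether the response of an ID gene differed between the sets, 7 were past the threshold, and each is a difference between the AID-DIvA set after recovery and the U2OS set before recovery in edgeR (quasi-likelihood test, Benjamini-Hochberg). On the log2 scale the response after minus before recovery was -0.60 for ID1 in WT cells, -1.38 for ID2 in WT and -1.14 in KO cells, -0.91 for ID4 in WT and -1.40 in KO cells, and 0.84 for ID3 in WT and 0.69 in KO cells. ID3 is the member with the opposite sign, in both genotypes, and it is also the gene targeted in the KO cells. A part of the KO in this sign was not tested. Of 23087 genes, 22.6% were called higher and 22.8% lower in WT, and 21.7% higher and 24.3% lower in KO cells. Stage, cell line label and sequencing set cannot be told apart in these values. Groups of 3 libraries were too small to be searched for outlying values.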

How the results depend on the processing

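Of 368 log2 changes of the ID genes recomputed under another tool, scaling, filter, strand or fit, 355 kept their direction and side of the threshold, 7 lost and 6 gained a call, and 0 reversed. For ID1 in recovered KO against WT AID-DIvA cells the call was lost with DESeq2 (0.17), library totals (0.15), no filter (0.18), at least 10 counts (0.17), all 4 groups in one fit (0.15) and the replicate block (0.17). ID3 in KO cells before recovery lost its call with all 4 groups in one fit (0.22). Calls were gained for ID3 in WT cells before recovery with library totals (0.50), all 4 groups (0.39) and the replicate block (0.43), for ID4 in treated KO against WT U2OS cells with library totals (-0.20) and the replicate block (-0.18), and for the ID1 response of KO cells after minus before recovery with no filter (-0.26). Genes called moved to 3152 of recovered KO against WT AID-DIvA with the replicate block, to 4389 of treated and 5658 of untreated KO against WT U2OS with all 4 groups, to 469 (DESeq2), 613 (no filter) and 157 (replicate block) for the interaction after recovery, and to 920 (DESeq2) and 775 (no filter) for that before it. The labels number the replicates and do not say whether same-numbered libraries were paired. Same-numbered libraries deviated with correlations of -0.43 to 0.31, with no comparison in which every pair passed 0.1, and this does not settle the pairing. FPKM in place of TPM gave the same shares of ID1. The cause was not tested for any of these.

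Leaving out each library in turn gave ranges that crossed 0 or the threshold for ID1 in KO against WT cells (-0.04 to 0.14 untreated AID-DIvA, 0.15 to 0.19 recovered, -0.52 to -0.17 untreated U2OS), ID1 and ID2 interactions before recovery (-0.48 to -0.13 and -0.16 to 0.00), ID2 in untreated U2OS (-0.53 to -0.41), ID3 before recovery (0.28 to 0.63 in WT, 0.11 to 0.32 in KO), ID4 in KO against WT cells (-0.07 to 0.08 untreated and -0.16 to 0.03 recovered AID-DIvA, -0.71 to -0.59 untreated and -0.28 to -0.12 treated U2OS) and the ID4 interaction after recovery (-0.16 to 0.04). Genes called ranged from 1266 to 8627 for untreated KO against WT U2OS cells, 122 to 297 for the interaction after recovery and 257 to 2091 for that before it, the 8627 and 2091 without untreated WT U2OS replicate 1. Where a group was left with 2 libraries, the fit pooled the spread with the other groups.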
